A study of Salmo salar with 16 samples.

Results

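The oligonucleotide probe C133R018, which the study assigned to the transcription factor gene mef2d (myocyte enhancer factor 2D), was followed in the liver of 16 individual Atlantic salmon. It was chosen by the diet difference itself: the study named 12 probes, and this one was selected on 3 of the 4 slides with a rank-based method that compared high ω6 and high ω3 fish on the same arrays analysed here. It is 1 of 43689 probes on the array that are not control spots, and 1 of 25061 that were unflagged on at least 12 of 16 arrays. The gene name rests on the study's match of the sequence to a rainbow trout protein. Which of the near-identical gene copies of the salmon genome the probe detects was not analysed here, and in RefSeq (assembly Ssal_v3.1) the transcript used for the study's mef2d primers belongs to LOC106588308, a gene without a symbol of its own.

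Myocyte enhancer factors of the MEF2 family are transcription factors that bind an AT-rich element in the control regions of their target genes. They take part in the differentiation of skeletal, heart and smooth muscle and in the development of neurons, and vertebrates carry several family members that can pair with each other. Class II histone deacetylases bind MEF2 proteins and silence their targets, and kinases that export these deacetylases from the nucleus release them. In rodent liver, members of the family have been reported to act in the activation of hepatic stellate cells.

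The 16 juvenile salmon had received either the high ω6 diet (8 fish from tanks 3, 7, 21 and 24) or the high ω3 diet (8 fish from tanks 2, 8, 20 and 26) for 12 weeks, and each tank gave 2 fish. Both diets held the same protein sources and differed in their mix of linseed, soy and palm oil. The study used only fish whose weight gain lay near the mean of their tank, to lower the variation in expression between fish. No fish carried a genetic modification that the labels name. The RNA of each whole liver piece was labelled with Cy5 and hybridised against a Cy3-labelled pool of the RNA of all 16 fish, so each fish was also part of its own reference. A value of 0 on the log2 scale used below is the trend of an array over its probes after normalisation, and only roughly equality with this pool. The fish was Cy5 and the pool Cy3 on every array, so a dye effect of a probe stays in its ratio. Each of 4 slides held 4 arrays, 2 per diet. The slides are called 1 to 4 in the order of their slide numbers, and the probe was selected on slides 2 to 4, since the study had left out slide 1. In pieces of whole liver, fewer cells that express a gene and less RNA per cell cannot be told apart, and no liver marker, muscle marker, MEF2 family member or MEF2 partner was read, because the files pair no probe with a gene.

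Unflagged probes per array numbered 21202 to 41311. The array of high ω6 fish 4 stood apart: the standard deviation of its log2 ratios over probes was 1.35, compared with 0.55 to 0.69 on the other 15 arrays. On that array 7.98% of the kept probes had a log2 ratio below -2 and 3.64% a ratio above 2, whereas on the other arrays at most 1.80% were below -2 and at most 0.53% above 2. Results that rest on this fish are therefore given with and without it, where both were computed.

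In the high ω6 livers, the mef2d log2 ratio was -0.98 in fish 1, -0.93 in fish 2, 0.10 in fish 3, -4.39 in fish 4, -1.92 in fish 5, -0.28 in fish 7 and 0.05 in fish 8, while fish 6 had a flagged spot. In the high ω3 livers, it was 0.61 in fish 1, 1.04 in fish 2, 1.10 in fish 3, 0.91 in fish 4, 0.11 in fish 5 and -0.17 in fish 8, while the spots of fish 6 and fish 7 were flagged. The log2 ratio thus ranged from strongly negative to slightly positive in the high ω6 fish, and it was positive in 5 of 6 measured high ω3 fish. The 2 diets overlapped over 4 slides, because high ω3 fish 8 was lower than high ω6 fish 3 and fish 8.

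**Figure D1:**
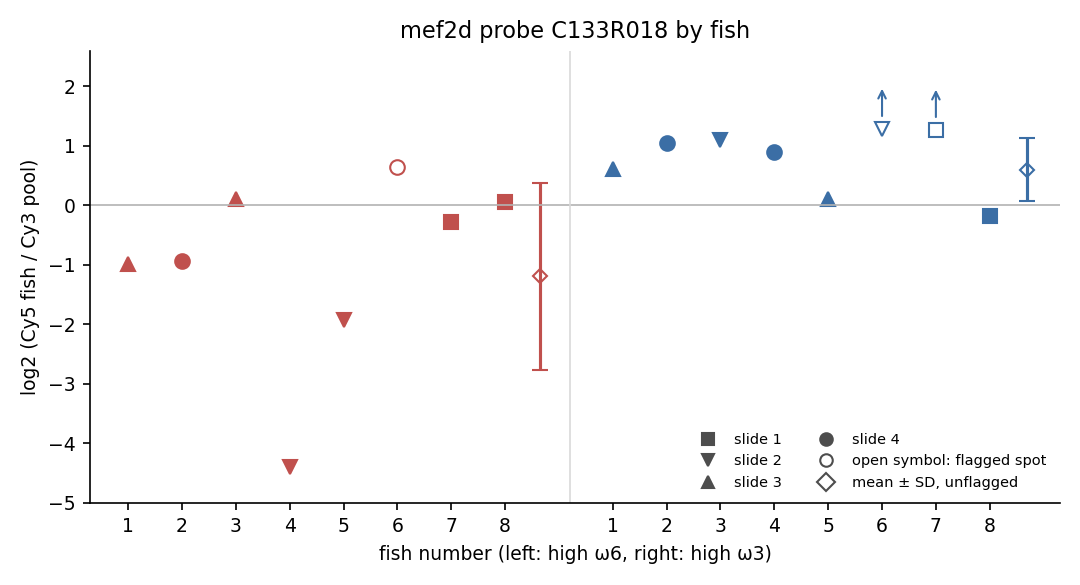
The log2 ratio of the mef2d spot (vertical axis, Cy5 of the fish over Cy3 of the pool) is plotted for each fish, with high ω6 fish on the left and high ω3 fish on the right, and the marker shape gives the slide. Open symbols are flagged spots, shown with their flagged value, arrows mark saturated spots whose value is a lower bound, and diamonds with bars are the mean and SD of unflagged fish; high ω6 fish 4 lies at -4.39, below all others.

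The 2 channels of the spot were read separately to see what lay behind these ratios. The median Cy5 signal of the mef2d spot, which holds the RNA of the fish, was 11440.5, 7638, 14503, 915, 3856, 30321.5, 20055 and 25931 intensity units in high ω6 fish 1 to 8, whereas it was 37494, 48578.5, 36265, 32007.5, 17675, 65535, 65535 and 15461.5 in high ω3 fish 1 to 8. These raw signals overlapped between the diets, since high ω6 fish 6, 7 and 8 were brighter than high ω3 fish 5 and 8. The Cy3 signal of the same spot, which held the same pool on every array, was 8839.5 to 23372 in high ω6 fish and 15467 to 33337.5 in high ω3 fish. The lowest Cy3 signal was again on the array of high ω6 fish 4.

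The spot of high ω6 fish 4 was barely brighter than its surroundings in the channel of the fish. Its Cy5 signal of 915 was 1.65 times the local background of 553.5, compared with 10.5 to 85.6 times on the other 15 arrays. The scanner software marked this spot as empty in Cy5 but left it unflagged, and 30.9% of the unflagged spots of that array carried the same mark in Cy5 alone. On the other 15 arrays this share was 7.69% to 55.2%. The Cy3 signal of the spot was 14.4 times its background.

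The 3 flagged mef2d spots were bright. The spots of high ω3 fish 6 and fish 7 were flagged because Cy5 was saturated at the scanner maximum of 65535, so their true signal was at or above this value. In high ω6 fish 6, the reason for the flag was contamination of the Cy5 background, and the signal of 30321.5 was the brightest of its diet. When flagged spots were kept, the log2 ratio was 0.64 in high ω6 fish 6, and it was 1.28 in high ω3 fish 6 and 1.27 in high ω3 fish 7, both lower bounds. The flags had thus removed the highest high ω6 fish and the 2 highest high ω3 fish.

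**Figure D2:**
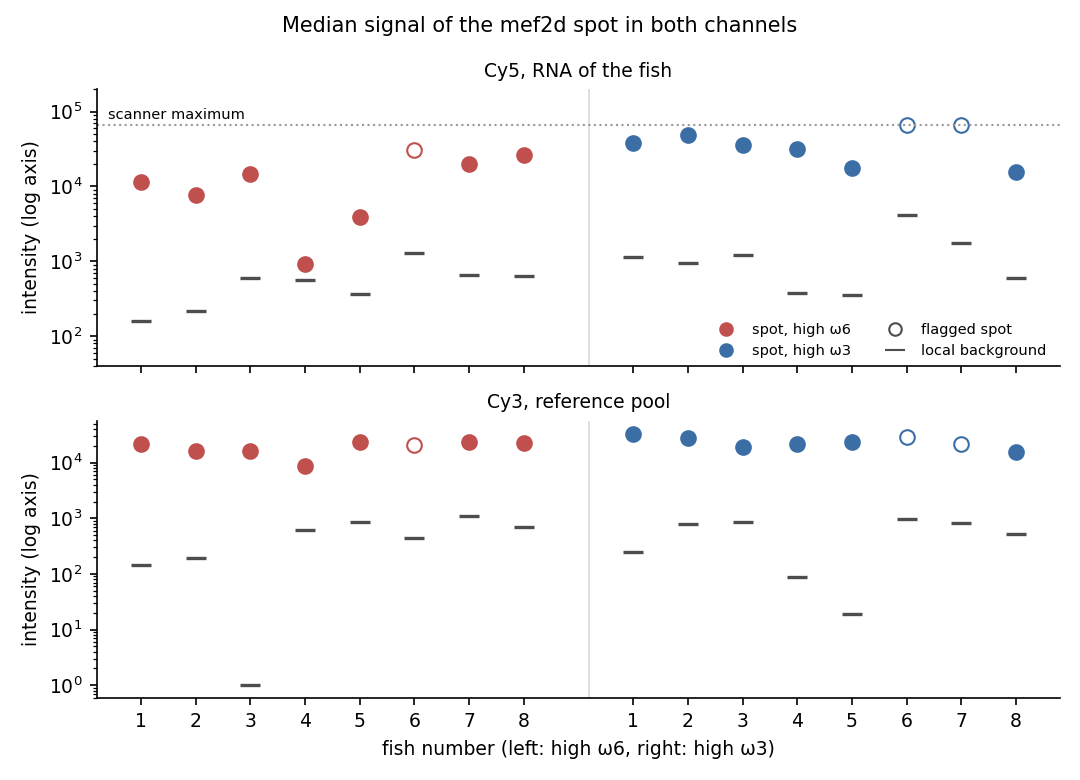
Median signal of the mef2d spot (circles) and its local background (dashes) in Cy5 (upper panel) and Cy3 (lower panel) for each fish, on logarithmic intensity axes, with high ω6 fish on the left and high ω3 fish on the right. Open circles are flagged spots, the dotted line is the scanner maximum of 65535, and the Cy5 signal of high ω6 fish 4 (915) lies just above its background (553.5).

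On its own array, however, the value of fish 4 was not the most extreme of the diet. In high ω6 fish, 10.5% (fish 1), 7.03% (fish 2), 71.8% (fish 3), 1.53% (fish 4), 1.15% (fish 5), 29.5% (fish 7) and 55.2% (fish 8) of the probes of the same array had a lower log2 ratio than mef2d. In high ω3 fish, the share was 91.9% (fish 1), 96.5% (fish 2), 95.9% (fish 3), 95.3% (fish 4), 72.5% (fish 5) and 38.2% (fish 8). By this measure fish 4 and fish 5, both on slide 2, had about the same place at the low end of their arrays. When all arrays were scaled to the same spread, mef2d had a log2 ratio of -2.22 in high ω6 fish 4 and of -1.78 in high ω6 fish 5.

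The spots that touch C133R018 on the array did not share the low value of fish 4. Of the 8 neighbouring spots, 2 were unflagged on that array, and their log2 ratios were -0.74 and 0.90. With flagged spots kept, the median log2 ratio of the neighbours was -0.18 on that array, compared with -0.29 to 0.32 on the other 15 arrays.

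Over the 3 slides on which the probe was selected, the log2 ratio of mef2d averaged -1.62 ± 1.70 in high ω6 fish and 0.75 ± 0.41 in high ω3 fish (SD, n = 5 each). The difference, high ω6 minus high ω3, was -2.38 with a standard error of 0.678 in limma, the second most negative of 25061 probes. The study chose the probe on this contrast, with 6 fish per diet and missing values imputed, while flagged spots stayed missing here. The difference is therefore given as a description without a test. The study's own quantitative PCR of mef2d gave a smaller fold change between these diets in the same direction, which it reported as a trend. By that PCR, mef2d was significantly lower in high ω6 fish than in fish on a balanced diet, which had no arrays. The study also reported negative correlations of mef2d with ω6:ω3 in liver and muscle. On the arrays, all high ω6 fish were below all high ω3 fish, by a narrow margin (0.10 in high ω6 fish 3, compared with 0.11 in high ω3 fish 5). Such a separation, with high ω6 lower, was seen for 53 of 25061 probes (0.211%), and nothing is read from it for a probe selected on these fish. In the deposited table the diets overlapped, with 0.08 in high ω6 fish 3 and 0.04 in high ω3 fish 5, as they did when flagged spots were kept. They also overlapped with no background correction, with background subtraction, with median centring and with only saturation-flagged spots kept. They stayed apart with scaled log2 ratios and with mean signals.

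Over all 4 slides, the mean log2 ratio was -1.19 ± 1.58 in high ω6 fish (SD, n = 7) and 0.60 ± 0.53 in high ω3 fish (SD, n = 6). The difference was -1.79 (limma standard error 0.593), the fifth most negative, compared with a median difference of -0.02 over all 25061 probes. Without high ω6 fish 4, it was -1.26 over 4 slides (rank 18 from the lowest) and -1.69 over the 3 slides of the selection (rank 17). The largest move came when that fish was left out and flagged spots were kept, which gave -1.39 over 3 slides and -1.18 over 4 slides. That setting includes the spot of high ω6 fish 6 with contaminated background, and saturated high ω3 spots whose values are lower bounds. With only saturated spots kept and fish 4 included, the difference was -2.41 over 3 slides and -1.91 over 4 slides. The direction was the same in each setting tried for these 2 fish sets. The limma standard errors of the diet difference treat fish of the same tank as independent and assume the same spread in both diets.

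**Figure D3:**
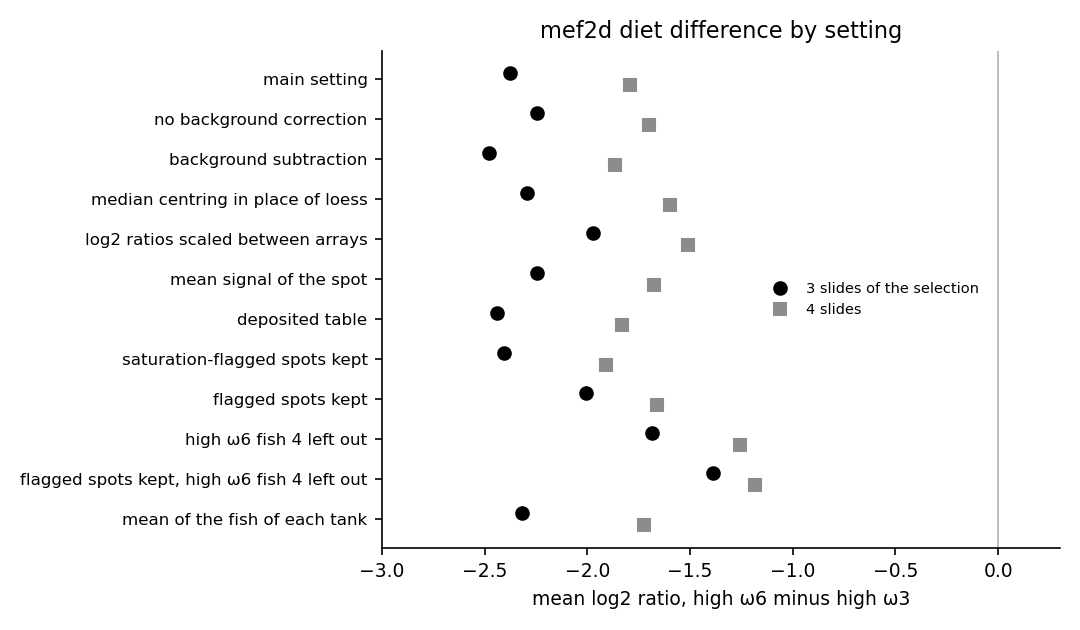
Difference in mean mef2d log2 ratio, high ω6 minus high ω3 (horizontal axis), for 12 settings of the processing (rows). Circles are the 3 slides of the selection and squares all 4 slides; every point lies below 0, between -2.48 and -1.18.

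The size of the difference was uneven between slides and tanks. Slide 1 held only fish of tanks 24 and 26, and these tanks had no fish on another slide. Slide 1 and these tanks therefore cannot be told apart. On slide 2 the mean log2 ratio was -3.16 in 2 high ω6 fish and 1.10 in 1 high ω3 fish, a difference of -4.26. This high ω6 mean includes fish 4, and without it the high ω6 value of slide 2 was -1.92, from fish 5 alone. On slide 4 it was -0.93 in 1 high ω6 fish and 0.97 in 2 high ω3 fish, a difference of -1.90, and on slide 3 it was -0.44 in 2 high ω6 fish and 0.36 in 2 high ω3 fish, a difference of -0.80. Slide 1 was left out of the selection by the study, for its high background and after no probe had passed with it, so its fish bore on the selection and are not independent of it. Here the median local Cy5 background of its 4 arrays was 149.5 to 437 intensity units, compared with 221.5 to 436 on slide 2 and at most 114 on slides 3 and 4. On slide 1, mef2d was -0.28 and 0.05 in the high ω6 fish and -0.17 in the unflagged high ω3 fish, a difference of 0.06. With the saturated spot of high ω3 fish 7 kept, the difference on this slide was -0.64, and since that spot is a lower bound, a higher true value would make it more negative. The sign depended on that 1 spot. No test was run, because the smallest two-sided exact permutation p that these fish allow is 0.333, with or without that spot.

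The 2 fish of a tank were alike in some tanks only. Within high ω6 tank 3 the 2 log2 ratios lay 0.05 apart, within high ω6 tank 24 they lay 0.33 apart, and within high ω6 tank 7 they lay 4.49 apart, since fish 3 and fish 4 came from that tank. Within high ω3 tanks 8 and 2 they lay 0.20 and 0.43 apart. The remaining tanks had 1 unflagged fish each. With flagged spots kept, their 2 fish lay 2.58 apart in high ω6 tank 21. In high ω3 tanks 20 and 26, where 1 spot each was saturated, they lay at least 1.33 and 1.38 apart. With the mean of each tank as 1 value, the 4-slide difference was -1.72. This value includes fish 4 through the mean of tank 7 (-2.15), and no difference of tank means without that fish was computed.

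The SD of mef2d between fish was larger in the high ω6 diet, by an amount that depended on the processing. The SD of the log2 ratio was 1.58 in 7 high ω6 fish and 0.53 in 6 high ω3 fish, a ratio of 3.00. Over all 25061 probes the median SD was 0.52 in high ω6 fish and 0.46 in high ω3 fish. The log2 ratio of the SDs was 1.58 for mef2d, above that of 94.8% of probes, with a median of 0.19 over all probes. Without high ω6 fish 4, the SD was 0.77 in high ω6 fish and 0.53 in high ω3 fish, the log2 ratio of the SDs was 0.55, and 81.4% of probes were below mef2d. With log2 ratios scaled between arrays, the SDs were 0.92 in high ω6 and 0.49 in high ω3 fish, a ratio of 1.86. With median centring in place of loess they were 1.37 and 1.00 over 4 slides, a ratio of 1.37, and over the 3 slides of the selection the order turned, with 1.06 in high ω6 and 1.11 in high ω3 fish. The unequal spread was known when the probe was taken up, and it is a description without a test. The 2 saturated high ω3 spots, whose true value is not bounded from above, are not part of the high ω3 SD. When they were kept at the scanner maximum, that SD was 0.56 (n = 8).

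Among the 12 selected probes, the ratio of the SDs was larger than for mef2d only for helz2a, which codes for a helicase that coactivates nuclear receptors in mammals (1.48 in high ω6 fish and 0.48 in high ω3 fish, a ratio of 3.05). The SD was larger in high ω6 than in high ω3 fish for 6 of the 11 other probes. Without high ω6 fish 4, the ratio was 1.47 for mef2d, below 2.33 for helz2a and 1.55 for eif2a, and the SD was larger in high ω6 fish for 7 of the 11 other probes. Saturation was found for few of them: lect2a and itgb5 had 1 saturated Cy5 spot each and the other 9 had none, compared with 2 for mef2d.

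The effect of the slide, given the diet, was tested for every probe with an F test in limma, which does not use the diet contrast. In this test an effect of slide 1 cannot be told apart from one of tanks 24 and 26. It tests a shift of a slide common to both diets, so it does not address a diet difference that changes between slides. mef2d did not pass this test (F = 1.77, adjusted p = 0.552 over all probes), while 294 of 24916 probes did at an adjusted p of 0.10 or less (1.18%). That count ranged from 3 to 813 when single fish were left out (3 without high ω6 fish 8, 813 without high ω6 fish 4), and it was 9866 with median centring and 0 without background correction, where 2804 probes had an unadjusted p under 0.05. For mef2d, leaving out single fish gave adjusted p values of 0.165 to 0.920 in limma, the lowest without high ω3 fish 3.

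Which other probes followed mef2d was tested inside the diets, with diet and the mef2d log2 ratio in 1 limma model over the 13 arrays with an unflagged mef2d spot. This and the correlations below treat the fish of a tank as independent. Of 25060 probes, 2783 (11.1%) had a slope on mef2d at an adjusted p of 0.10 or less, 1444 in the same and 1339 in the opposite direction. Without high ω6 fish 4, limma called 0 probes, with 1312 at an unadjusted p under 0.05 (compared with 5352 with all fish). Leaving out any other fish left 2392 to 3618 probes. No probe was called either when log2 ratios were scaled between arrays, when background was not corrected, or when the rank of mef2d took the place of its log2 ratio. The count therefore depended on 1 array, the one with the wide ratios, whose part in it beyond mef2d was not tested.

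**Figure D4:**
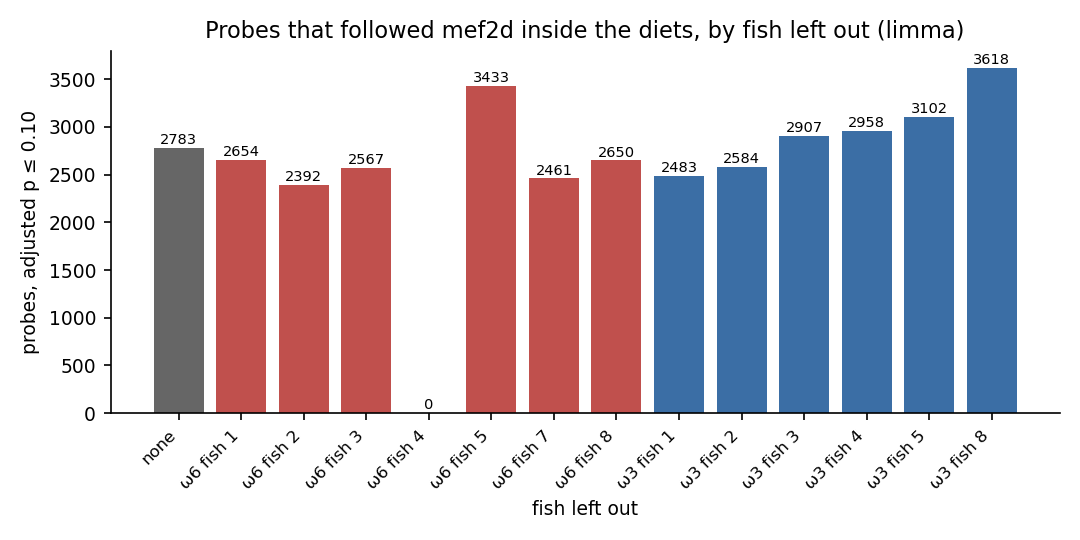
Number of probes whose log2 ratio followed mef2d inside the diets (limma, adjusted p of 0.10 or less; vertical axis) with no fish left out and with each fish left out in turn (horizontal axis, high ω6 fish before high ω3 fish). The count is 2783 with all fish, 0 without high ω6 fish 4, and 2392 or more without any other single fish.

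The probes most like mef2d among those unflagged on all 13 arrays showed the same fish at the extreme. They were picked by their slope on mef2d in these same arrays, where fish 4 lay farthest from its diet mean. An extreme value in fish 4 thus largely follows from the choice and is no separate result. C081R032, C111R045 and C204R065 had the most positive moderated t, with limma slopes of 1.06, 1.02 and 1.09 and adjusted p of 0.0048, 0.0051 and 0.0051. In high ω6 fish 4 these 3 probes had log2 ratios of -4.32, -4.85 and -4.73, while in the other high ω6 fish C081R032 ranged from -1.20 to 1.07, C111R045 from -2.22 to -0.25 and C204R065 from -0.81 to 0.74. C041R070 and C246R140 had the most negative moderated t, with slopes of -0.97 and -0.81 (limma adjusted p of 0.0048 and 0.0051). They were high in fish 4, at 3.07 and 2.00, and at most -0.72 and -0.97 in the other high ω6 fish. Without fish 4 the slopes of the 5 probes were 0.70, 0.96, 0.61, -0.49 and -0.39, each with a limma adjusted p of 0.912. The files give these 5 probes no gene name.

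Agreement with the other 11 selected probes was tested in the same way, as the correlation of deviations from the diet means, with an exact permutation test within diets. Across these probes, Pearson r was positive for 7 and negative for 4, with a median of 0.24, and no exact p was below 0.05. Without high ω6 fish 4, r was positive for 5 and negative for 6, with a median of -0.05. Again no exact p was below 0.05. Over all 25060 probes, the limma slope was positive for 13517 with all fish and for 12232 without fish 4. In the limma fit over all probes, 1 of the 11 (9.09%) had an adjusted p of 0.10 or less, compared with 11.1% of all probes, so this count is near the background and is no result about the selected probes. The probe was helz2a, in the direction opposite to mef2d (slope -0.66, standard error 0.208, limma adjusted p = 0.081). Other settings called other probes: lhpl4 had a limma adjusted p of 0.045 in the deposited table, 0.083 with background subtraction and 0.055 when saturated spots were kept, and lect2a had 0.066 when all flagged spots were kept. In these settings helz2a was also called with saturated spots kept (limma adjusted p = 0.065) and with all flagged spots kept (0.052). None of the 11 was called in any limma fit without high ω6 fish 4.

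High ω6 fish 4 had the highest helz2a value of its diet. The helz2a log2 ratio was 1.54 in that fish and between -3.33 and -0.26 in the other high ω6 fish. Pearson r with mef2d was -0.69 over 11 fish (two-sided exact permutation p = 0.164) and Spearman rho was -0.22 (exact p = 0.576). Without fish 4, r was -0.21 (exact p = 0.726) and the limma adjusted p was 0.952. Without fish 4 and fish 1, the 2 farthest from the median of mef2d, r was -0.18. When slide was also taken into account, r was -0.88 with all 11 fish (permutation p = 0.0029) and -0.84 without fish 4 (permutation p = 0.0132). These permutations exchanged fish within diets but across slides. They do not respect the slide term, so nothing is concluded from their p. The limma adjusted p with slide was 0.093 with all fish and 0.556 without fish 4. The size of r without fish 4 therefore depended on the slide term, and the call of helz2a in limma did not hold without fish 4 in either model. The call was also lost without high ω6 fish 1, 2 or 3 (limma adjusted p of 0.102, 0.109 and 0.105), in the deposited table (0.106) and with fish number as a block (0.141). With all fish it was lost as well with no background correction (0.158), background subtraction (0.133), median centring (0.771), scaled ratios (0.872) and ranks (0.869).

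lhpl4, a membrane protein of inhibitory synapses in mammals, had its lowest high ω6 value in fish 4. Its log2 ratio was -2.61 in high ω6 fish 4 and -0.15 to 1.12 in the other high ω6 fish, r was 0.60 over 13 fish (exact permutation p = 0.0832; rho 0.24, exact p = 0.413; limma adjusted p = 0.120), and r was -0.05 without fish 4 and -0.17 without fish 4 and fish 5. Without high ω3 fish 8 or high ω3 fish 4, its limma adjusted p was 0.024 and 0.054. Inside the high ω6 diet alone, r was 0.91 (n = 7, exact permutation p = 0.0345), and 0.35 without fish 4 (n = 6, exact p = 0.50). Inside the high ω3 diet r was -0.17 (n = 6, exact permutation p = 0.703), and the difference between the diets was not tested. htra1b, a secreted serine protease, had r = 0.49 over 13 fish (exact permutation p = 0.134; rho 0.39, exact p = 0.220) and r = 0.05 without fish 4. Its limma adjusted p was 0.244, and 0.074 without high ω6 fish 8, and r was 0.31 without fish 4 and fish 5. With slide taken into account, r of htra1b was 0.73 (permutation p = 0.0093), and 0.32 without fish 4 (permutation p = 0.324). These permutations also exchanged fish across slides, so nothing is concluded from their p.

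The study counted 4 of the selected probes as translation genes, and their signs differed. Pearson r was positive for p43, a component of the aminoacyl-tRNA synthetase complex, eif2a, a translation initiation factor, and eif4b1, a cofactor of the helicase that unwinds mRNA for initiation, and negative for rpl18, a protein of the large ribosomal subunit. For rpl18, r was -0.42 over 9 fish (exact permutation p = 0.240; rho -0.57, exact p = 0.128; limma adjusted p = 0.473) and -0.24 without high ω6 fish 1 and fish 2, and its spot was flagged in fish 4. In high ω6 fish 4 the log2 ratios of p43, eif2a and eif4b1, -0.83, -0.45 and -1.60, lay inside the range of the other high ω6 fish. For p43, r was 0.42 with all 13 fish (exact permutation p = 0.198; rho 0.47, exact p = 0.112) and 0.54 without fish 4 (exact p = 0.105). For eif2a, r was 0.32 (exact permutation p = 0.416; rho 0.36, exact p = 0.283) and 0.56 without fish 4 (exact p = 0.0996). For eif4b1, r was 0.43 (exact permutation p = 0.148; rho 0.48, exact p = 0.111) and 0.53 without fish 4 (exact p = 0.0923). Spearman rho did not move in the same way: without fish 4 it was 0.47, 0.38 and 0.38 for p43, eif2a and eif4b1. Inside the high ω3 diet alone r was 0.72, 0.63 and 0.74 for p43, eif2a and eif4b1 (n = 6; exact permutation p of 0.108, 0.186 and 0.0958). None of these passed, and the limma adjusted p were 0.393, 0.539 and 0.354 with all fish and 0.912 for each without fish 4. With the 2 fish farthest from the median of mef2d left out, high ω6 fish 4 and fish 5, r was 0.53, 0.34 and 0.48.

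**Figure D5:**
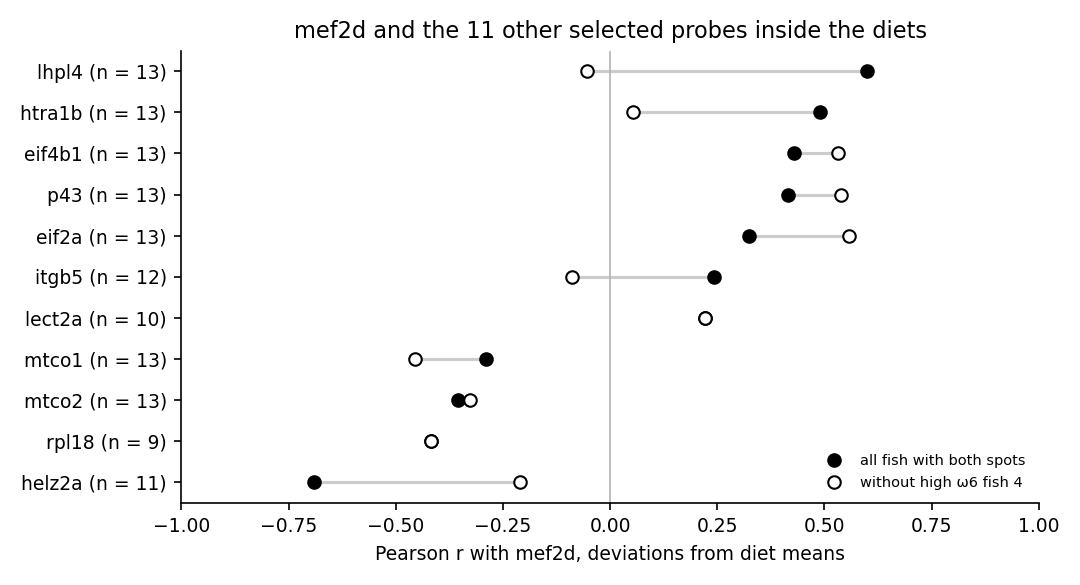
Pearson r of mef2d with each of the 11 other selected probes (rows), computed from deviations from the diet means (horizontal axis), with all fish whose 2 spots were unflagged (filled) and without high ω6 fish 4 (open). Leaving out that fish moves r of lhpl4 to -0.05, of htra1b to 0.05 and of helz2a to -0.21, and that of eif2a to 0.56; the spots of lect2a and rpl18 were flagged in fish 4, so their 2 points coincide.

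For the remaining probes no correlation over all fish passed in the main setting. mtco1 and mtco2, 2 mitochondrially encoded subunits of cytochrome c oxidase, had r of -0.29 and -0.36 over 13 fish (exact permutation p of 0.340 and 0.204; rho -0.35 and -0.38, exact p of 0.239 and 0.193). Without the 2 farthest fish r was 0.13 and 0.03. Inside the high ω6 diet without fish 4, r of mtco2 was -0.94 (n = 6, exact permutation p = 0.0083). It was the only one of the 11 probes below 0.05 among those with at least 6 such fish. With fewer fish, rpl18 had r = -0.86 (n = 4, exact permutation p = 0.0417, the smallest p that 4 fish allow). Inside the high ω3 diet, r of mtco2 was 0.33 (n = 6, exact permutation p = 0.531). With slide taken into account over 13 fish, r of mtco2 was -0.07 (permutation p = 0.847). itgb5, an integrin beta subunit, had r = 0.24 over 12 fish (exact permutation p = 0.460, rho -0.18, exact p = 0.571) and -0.12 without fish 4 and fish 5. Its sign differed between the diets, with r of 0.57 inside high ω6 and -0.80 inside high ω3. These had n = 6 each and exact permutation p of 0.242 and 0.0736, and the difference between the diets was not tested. lect2a, a chemotactic protein secreted by the liver, had r = 0.22 over 10 fish (exact permutation p = 0.548; rho 0.19, exact p = 0.621), and its value depended on which fish entered: r was 0.90 without high ω6 fish 1 and fish 2 (n = 8, exact permutation p = 0.0083) and -0.61 when flagged spots were kept (exact p = 0.0363). Its limma adjusted p was 0.735 in the main setting, 0.066 with flagged spots kept (slope -0.99) and 0.099 without high ω6 fish 1, so both calls depended on which spots entered, and their slopes differed in sign. The limma adjusted p of mtco1, mtco2 and itgb5 were 0.578, 0.464 and 0.684. No p was adjusted over these 11 probes alone, since they were chosen with results known.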

How the data were processed

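The scanner output deposited by the authors held 1 array per fish, with intensity values, not background-subtracted, for each spot and the area around it in both channels, and other marks (flags, saturation). A second file of the authors gave their own log2 ratios for 10264 probes, made without flagged spots and with loess, and served as an alternative. Slides and tanks were read from the names of the deposited files.

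Flagged spots counted as missing. Median signals went through normexp background correction (offset 50) and then loess, array by array (limma 3.58.1, R 4.3.3). A probe needed 12 unflagged arrays of 16. The threshold was 0.10 after Benjamini-Hochberg adjustment over all probes. An exact permutation test of mef2d values within diets replaced the 100000 permutations planned, because each diet held fewer than 10 fish. For correlations with slide taken into account, the permutations still exchanged fish across slides. Calculations used Python 3.11.15 with numpy 2.4.6, pandas 2.3.3 and scipy 1.17.1, and figures matplotlib 3.10.9. The limma fits were tested on simulated data with independent noise and, for each probe, the same spread on every array. Those data held no array with wide ratios like that of high ω6 fish 4, so they do not cover its effect. The number of arrays limits the precision.

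Named were mef2d, the other 11 probes selected by the study, the 8 touching spots, and the 3 probes with the most positive and the 2 with the most negative moderated t on mef2d. Members, lists and tests were chosen with earlier results of these data known. Fish are separate animals, and the 2 fish of a tank share it. The alternatives were other background corrections, centring or scaling, flags kept, mean signals, the deposited table, slide or fish number as a block, tank means and each fish left out. Keeping spots flagged for saturation alone, ranks, and settings that combine the omission of high ω6 fish 4 with another were added after the data were seen. No probe or gene sequence was used here.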

Additional observations from a re-analysis of the deposited data

Results flagged for a closer look

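In the deposited table, the mef2d log2 ratio of -4.86 in high ω6 fish 4 lay far below the other 6 unflagged high ω6 fish over 4 slides. The gap to the next fish was 0.59 of the whole range of the diet, above the critical value of 0.568 for 7 fish. With the main setting the gap was 0.55 of the range, at a log2 ratio of -4.39, and no value stood apart by the same criterion. In total, 20 groups of values were examined at both ends and 1 value passed. These groups reuse the same fish in several measures and in nested sets of slides, so no number expected by chance is given. The unequal spread between the diets was known when the probe was taken up, so the gap is a description only. High ω6 fish 4 was the lowest fish in each high ω6 group.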

How the results depend on the processing

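The diet difference kept its direction in the settings tried over 3 and over 4 slides, with -2.81 to -1.69 and -2.01 to -1.26 when single fish were left out. On slide 1 it was 0.31 with median centring, and turned to -0.64 both with all flagged spots and with only saturated spots kept. The log2 ratio of the SDs was 0.45 with median centring and 0.55 to 1.95 when single fish were left out.

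The number of probes that followed mef2d (2783) was 1624 at a threshold of 0.05, 496 with median centring, 1697 in the deposited table (of 10263 tested), 381 with slide as a block and 0 with no background correction, with scaled ratios, with ranks, or with high ω6 fish 4 left out, whether or not flagged or saturated spots were kept or slide was a block (0 to 3618 when single fish were left out). By limma, 3489, 1441 and 1371 probes had an unadjusted p under 0.05 with no background correction, scaled ratios and ranks, and 2606, 1462 and 2030 without fish 4 with flagged spots kept, saturated spots kept or slide as a block. The adjusted p of mef2d across slides stayed above 0.10 under every setting run. The spot was not unflagged on all 16 arrays, so that filter gave no value for slides. Saturated spots were already flagged, so leaving them out changed nothing. The causes of these shifts were not tested.

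Fish numbers are shared by both diets. Deviations of same-numbered fish correlated at 0.05 to 0.50, over 0.1 for 7 of 8 numbers, and differently numbered fish were not compared. The highest were 0.45 for fish 7 and 0.50 for fish 8, whose arrays shared slide 1. Same-numbered fish 1 shared slide 3 and same-numbered fish 2 shared slide 4, at 0.22 for both. The main setting did not take the numbers as pairs, and whether they mark pairs was not tested. With fish number as a replicate block, the difference was -2.38 over 3 slides and -1.94 over 4 slides, and 1165 probes followed mef2d.

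Of 98 correlations under alternatives other than single fish left out, 84 kept their sign and their side of 0.05, 7 came to a p below 0.05 with the same sign (helz2a 3, lhpl4 2, htra1b 2) and 7 changed sign, of which lect2a with flagged spots kept was also below 0.05 (8 of 98 below 0.05). Those that changed sign were lhpl4 (-0.0515) and itgb5 (-0.14) with slide as a block and high ω6 fish 4 left out, lect2a (-0.0067) and itgb5 (-0.22) with scaled ratios, lect2a (-0.61) and rpl18 (0.0195) with flagged spots kept, and rpl18 (0.0711) with median centring. Among the p below 0.05, those of helz2a and htra1b with slide as a block came from permutations across slides. Single fish left out gave r of -0.0542 to 0.77 for lhpl4, -0.14 to 0.72 for lect2a and -0.0888 to 0.32 for itgb5.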
